A study of Mus musculus with 28 samples.

Results

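The Zic transcription factor family was described through Zic1, Zic2, Zic4 and Zic5, the 4 members named for this account, at the age of 3 weeks, in the brains of 3 C57BL/6J males. On the array 6 probes carried the name of a member, and for each gene the probe with the highest mean level was used. The 4 genes stand among 20660 symbols that could be named, and their probes were among the 32364 probes tested. Expression had been measured by Transcriptome Tomography, a method that cuts a whole frozen brain in 1 direction and pools runs of neighbouring sections into fractions. The brain of mouse 1 gave 12 coronal fractions, that of mouse 2 gave 6 horizontal fractions and that of mouse 3 gave 10 sagittal fractions, and the labels name no treatment and no allele for these mice. According to the labels a fraction held 100 sections of 5 micron, but the thickness in the study's methods is another, so positions are given here as fraction numbers. Coronal fraction 12 was labelled as holding the fraction after it too. Each fraction had 1 array, so no position was replicated, and mouse and plane cannot be told apart.

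Zic proteins are transcription factors with zinc fingers of the C2H2 type that resemble those of the Gli proteins, the factors at the end of the hedgehog signalling pathway. They act in the dorsal neural tube, in the formation of the forebrain midline and in the cerebellum, where granule cell precursors and granule cells express them. Zic genes are also known from interneurons of the olfactory bulb, from the septum and from the meninges. Zic1 and Zic4 lie next to each other, and so do Zic2 and Zic5, each pair running in opposite directions from a shared start region.

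The starts of the members are shown because the levels of the members moved together over the fractions. RefSeq windows (build GRCm38.p6) of 250 bases before the start of transcription were matched for 3 of the 4 members, Zic1, Zic4 and Zic5. The Zic1 window lies at chr9:91365769-91366018 on the minus strand, the Zic4 window at chr9:91368722-91368971 on the plus strand and the Zic5 window at chr14:122465659-122465908 on the minus strand. Capitals mark the CCAAT box (CCAAT, or ATTGG on the other strand).
Zic1: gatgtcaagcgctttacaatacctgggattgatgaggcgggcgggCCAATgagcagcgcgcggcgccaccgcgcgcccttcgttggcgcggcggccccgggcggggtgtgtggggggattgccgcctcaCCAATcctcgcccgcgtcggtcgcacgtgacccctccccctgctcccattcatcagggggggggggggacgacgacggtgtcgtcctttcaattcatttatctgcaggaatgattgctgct
Zic4: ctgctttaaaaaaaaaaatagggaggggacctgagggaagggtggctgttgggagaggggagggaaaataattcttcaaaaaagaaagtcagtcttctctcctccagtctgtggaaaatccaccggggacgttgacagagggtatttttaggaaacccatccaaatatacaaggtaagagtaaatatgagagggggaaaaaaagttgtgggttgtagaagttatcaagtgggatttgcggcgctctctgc
Zic5: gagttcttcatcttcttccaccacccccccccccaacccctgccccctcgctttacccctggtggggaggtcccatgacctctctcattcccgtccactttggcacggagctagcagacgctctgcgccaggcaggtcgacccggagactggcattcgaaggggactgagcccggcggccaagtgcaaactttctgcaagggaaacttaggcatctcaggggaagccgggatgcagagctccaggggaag
The Zic1 window had a GC content of 66% and 27 CpG dinucleotides, against a median of 52.4% and 6 over the 32851 windows of the table. The Zic5 window had 62.4% and 11 CpG, and the Zic4 window had 44.4% and 4 CpG. Of all windows, 84.5% had a lower GC content than that of Zic1, 77.5% than that of Zic5 and 22.1% than that of Zic4. The Zic1 window held 2 CCAAT boxes and the other windows 0, with the box in 33.8% of all windows. Each of the 3 windows held 1 E-box (CANNTG, a palindrome in its fixed letters), which 66.2% of windows hold. A Gli motif (GACCACCCA, both strands, in 0.225% of windows) and a TATA box (TATAAA, both strands, in 12.4%) were in 0 of the 3. The shared position of Zic1 and Zic4 on chromosome 9 did not go with a shared base composition.

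A level is the log2 of a probe's processed signal relative to the 75th percentile of its array, so a level of 0 equals that percentile and a difference of 1 is a factor of 2. Levels of different probes are not compared with each other. Zic1, Zic2 and Zic4 were well above background in 28 of 28 fractions. Zic5 was well above background in 11 of them, coronal fractions 1 to 3, horizontal fractions 2 to 4 and sagittal fractions 2 to 6, and its other values have no measured order. The lowest signal that passed as well above background differed between arrays. It lay between -5.847 and -5.061 in sagittal fractions 2 to 4, and between -4.236 and -3.027 in fractions 7 to 10. Detection of Zic5 on either side of the midline is therefore not compared. The 75th percentile of the signal ran from 135.2 in sagittal fraction 1 to 573.5, and repeated spots of a probe on 1 array had a median SD of 0.056 to 0.085 log2. In sagittal fraction 9 and horizontal fraction 6, 45.4% and 44.3% of the 8091 dimmest tested probes lay over 1 log2 above their neighbouring fractions, against 2.19% to 29.6% on the arrays other than these and sagittal fraction 1. For the members, midline differences, trend calls and correlations with each other are also given without these arrays. The exception is correlation within the horizontal series, where 5 fractions would be left. The arrays lay on 4 slides, with coronal fractions 1 and 2 on the first, 3 to 10 on the second and 11 and 12 on the third. In bulk fractions, fewer cells of a type and less RNA per cell cannot be told apart.

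**Figure D1:**
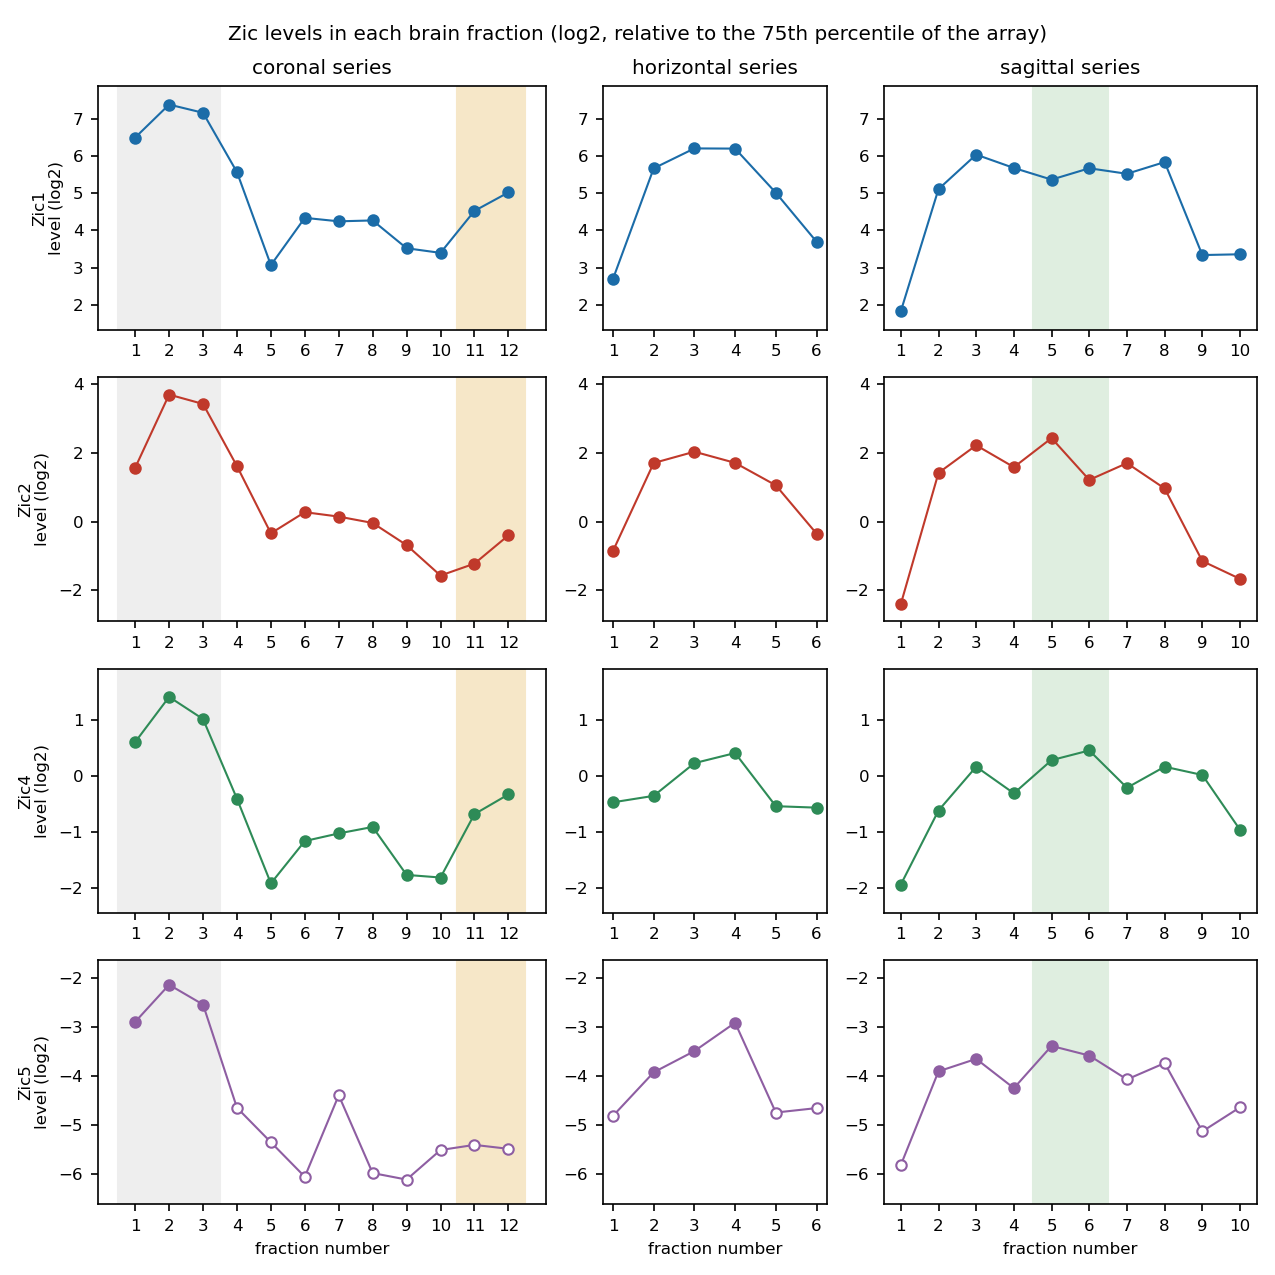
Level of each Zic gene (vertical axis, log2 relative to the 75th percentile of the array) in each fraction (horizontal axis, fraction number) of the coronal, horizontal and sagittal series, 1 array per point. Open points were not well above background, and shading marks coronal fractions 1 to 3 and 11 to 12 and sagittal fractions 5 and 6. Each gene was highest in coronal fraction 2, and Zic5 was open in coronal fractions 4 to 12.

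The first question was where the members lie along the caudal to rostral axis. Coronal fractions were numbered from the caudal end, as marker genes showed. The mean of the hindbrain list was highest in fraction 1, those of the cerebellar granule cell and Purkinje cell lists in fraction 2, and those of both olfactory bulb lists in fraction 12. Fractions 1 to 3 are called caudal (cerebellum and hindbrain), 4 to 10 middle, and 11 and 12 rostral (olfactory bulb). The borders are not sharp. Relative to their coronal means, the granule cell, Purkinje cell and hindbrain lists were also raised in fraction 4 (by 1.31, 1.47 and 1.11 log2), and the olfactory nerve and both olfactory bulb lists in fraction 10 (0.952, 0.715 for projection neurons and 0.58 for interneurons), so the middle zone holds signal of both neighbours.

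Zic1, the member best known from cerebellar granule cells, had levels of 6.50, 7.39 and 7.17 in the caudal fractions 1, 2 and 3. In the 7 middle fractions it ran from 3.07 in fraction 5 to 5.57 in fraction 4, with a median of 4.24. In the rostral fractions 11 and 12 it had 4.53 and 5.02. Each caudal value lay above all middle and rostral ones, and fraction 2 exceeded fraction 5 by 20.1-fold. Fraction 4, which borders the caudal zone, was the highest fraction outside it.

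Zic2, whose loss in humans is a known cause of holoprosencephaly, a failure to divide the forebrain, had 1.57, 3.70 and 3.43 in the caudal fractions. In the middle fractions it ran from -1.57 in fraction 10 to 1.62 in fraction 4, with a median of -0.04. In the rostral fractions it had -1.22 and -0.40. Fractions 2 and 3 stood above all others, whereas fraction 1 was just below fraction 4, so the caudal and middle values overlapped. Fraction 2 exceeded fraction 10 by 38.6-fold, the widest coronal range of the 3 members that were measured in every fraction.

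Zic4, the neighbour of Zic1, had 0.61, 1.41 and 1.02 in the caudal fractions. In the middle fractions it ran from -1.91 in fraction 5 to -0.40 in fraction 4, with a median of -1.16. In the rostral fractions it had -0.68 and -0.33. Its order over the fractions was near that of Zic1, with the lowest value of both in fraction 5. The range was narrower, at 10-fold between fractions 2 and 5.

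Zic5, the neighbour of Zic2, had -2.90, -2.15 and -2.55 in the caudal fractions. From fraction 4 to fraction 12 it was not well above background, with signals between -6.12 and -4.40. Fraction 2 exceeded the lowest fraction by at least 3.78-fold, taken against the lowest signal that passed as well above background on that array. Zic5 passed the filter in the coronal series through the caudal fractions only, so in this series it had to be higher there, and its test is a description.

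Against the middle fractions, the caudal fractions were higher for each of Zic1, Zic2 and Zic4 by limma (adjusted p under 0.05 over 32364 probes). Among the probes tested, 11.2% were called higher and 11.7% lower in this comparison. The mean of Zic1 was 7.02 ± 0.46 (SD, n = 3 fractions) against 4.06 ± 0.83 (n = 7), a difference of 2.96 (SE 0.45, limma adjusted p 0.0011), or 7.8-fold. For Zic2 the difference was 2.98 (SE 0.61, limma adjusted p 0.00565), or 7.91-fold. For Zic4 it was 2.29 (SE 0.32, limma adjusted p 0.000678), or 4.9-fold. For Zic5 the caudal mean of -2.53 ± 0.38 was at least 3.37-fold above the middle fractions, with a fitted difference of 2.91 from middle signals that were not well above background (SE 0.37, limma adjusted p 0.000417). By an exact two-sided permutation test over the fractions, p was 0.0167 for Zic1 and Zic4, the smallest that 3 against 7 fractions can give. For Zic2 it was 0.0333. Zic5 had 0.0167 as well, but it passed the filter through the caudal fractions only. Its limma and permutation p are therefore descriptions and no support for a difference. The fractions are parts of 1 brain and neighbours are not independent, so these p-values describe this brain and not other mice.

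The slide moved with the zones, since of the caudal fractions only fraction 3 shared a slide with the middle ones. With the slide as a term the differences were 3.11 for Zic1 (limma adjusted p 0.0497), 3.51 for Zic2 (0.0803), 2.30 for Zic4 (0.0438) and 2.89 for Zic5 (0.0355). These values rest on fraction 3 alone, which is assumed to vary like the other fractions, since the difference between fraction 3 and fractions 4 to 10 within that slide is the same. Fitted within that slide alone, with 1 caudal array, Zic1, Zic2 and Zic4 were not past the threshold. The part of the slide in the caudal levels was not tested with more than this 1 array. The share of all probes called in the fits with a slide term or within 1 slide was not counted. Under normexp background correction the difference of Zic5 was 0.91 (limma adjusted p 0.00196).

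**Figure D2:**
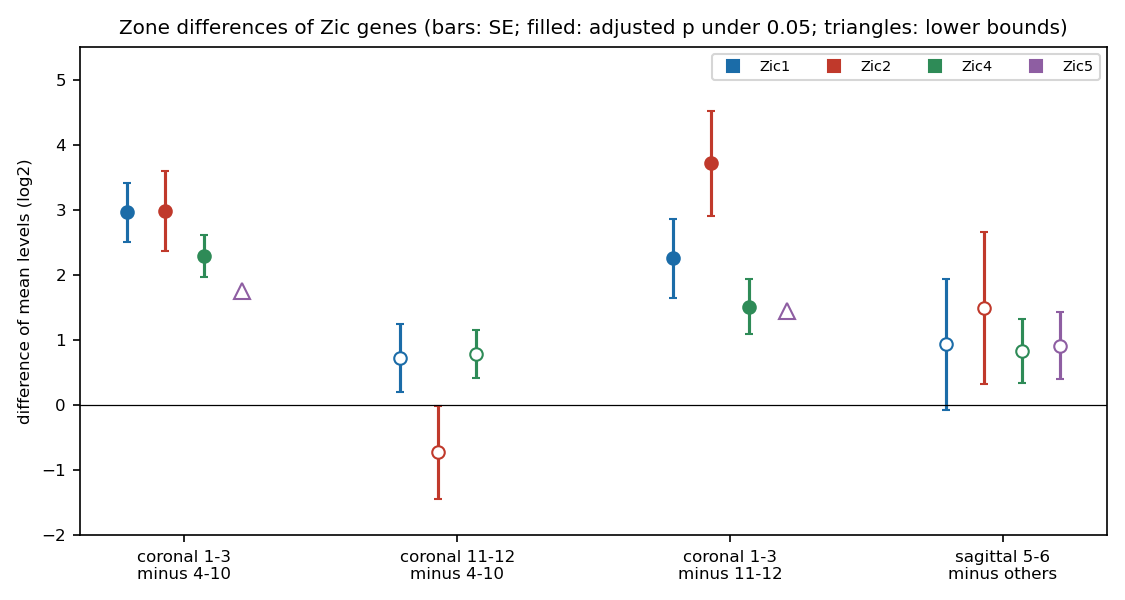
Difference of mean levels between zones (vertical axis, log2) for the 4 members in 4 comparisons (horizontal axis, fraction numbers). Circles are limma estimates with their standard error, filled where the adjusted p is under 0.05, and triangles are lower bounds for Zic5 against zones that were below background (at least 3.37-fold and 2.72-fold), with no point for Zic5 where both zones were. Zic1, Zic2 and Zic4 lie between 2.29 and 2.98 in the first comparison, and no point is filled in the second.

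The second question was the level in the olfactory bulb. Of the 4 members, 0 were called in rostral fractions 11 and 12 against the middle fractions, where 8.72% of all tested probes were called higher and 10.0% lower. At an unadjusted p under 0.05, limma had 11026 of the 32364 probes. The rostral mean of Zic1 was 4.77 ± 0.35 (SD, n = 2), and the difference was 0.72 (SE 0.52, limma adjusted p 0.364). For Zic2 the rostral mean of -0.81 ± 0.58 was lower than the middle mean of -0.09 ± 0.98, with a difference of -0.73 (SE 0.71, limma adjusted p 0.506), which was -0.44 without fraction 4, -0.32 without fraction 11 and -1.14 without fraction 12. The difference of Zic1 was 0.97 without fraction 4 (limma adjusted p 0.0993), 0.97 without fraction 11 and 0.47 without fraction 12. For Zic4 the difference was 0.78 (SE 0.37, limma adjusted p 0.165). It was 0.92 without fraction 4 (limma adjusted p 0.0675), 0.95 without fraction 11 and 0.60 without fraction 12. Zic5 was not well above background in either zone. No other coronal fraction shared the slide of the rostral fractions, so zone and slide cannot be told apart here.

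Between the caudal and the rostral fractions, 7.23% of all tested probes were called higher in the caudal zone and 6.70% lower. Zic1 was higher in the caudal fractions by 2.25 (SE 0.6, limma adjusted p 0.0282), Zic2 by 3.71 (SE 0.81, limma adjusted p 0.0108) and Zic4 by 1.51 (SE 0.42, limma adjusted p 0.0354). These are factors of 4.75, 13.1 and 2.86. Zic5 was at least 2.72-fold higher against the lowest signals that passed as well above background (difference 2.92, SE 0.49, limma adjusted p 0.00307), but under normexp background correction the difference was 0.66 (limma adjusted p 0.0698). Here too Zic5 passed the filter through the caudal fractions only, so its test is a description. With no filter on dim probes the calls of Zic1 and Zic4 were lost (limma adjusted p 0.0554 and 0.0711). That of Zic4 was also lost with the array median (1.40, limma adjusted p 0.0651) and with fractions 1 to 4 as the caudal zone (1.16, limma adjusted p 0.109). With 3 against 2 fractions an exact permutation test cannot give a p under 0.2. The calls of Zic1 and Zic4 were lost without fraction 2, 3, 11 or 12, with limma adjusted p of up to 0.163 and 0.19. The call of Zic2 was lost without fraction 11 (3.30, limma adjusted p 0.0861).

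The third question was the midline. In the sagittal series the brain was cut from side to side, and fractions 5 and 6 were taken as the midline. Zic1 had 5.37 and 5.67 there. In the 8 other fractions it ran from 1.82 in fraction 1 to 6.04 in fraction 3, with a median of 5.32. Fractions 3, 4, 7 and 8, on either side of the midline, had 6.04, 5.68, 5.53 and 5.84, and the outer fractions 1, 2, 9 and 10 had 1.82, 5.11, 3.34 and 3.36. The midline values of Zic1 lay within the range of the off-midline ones, and it was the outer fractions that were low.

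Zic2 had 2.43 and 1.22 at the midline. In the other fractions it ran from -2.40 in fraction 1 to 2.22 in fraction 3, with a median of 1.19. The higher midline value was the maximum of the series, and the lower one was below fractions 2, 3, 4 and 7. Zic4 had 0.29 and 0.46 at the midline, against -1.93 to 0.17 elsewhere with a median of -0.26, and Zic5 had -3.40 and -3.59 against -5.83 to -3.66. For Zic4 both midline values lay above all others, by a small margin. Zic5 was well above background in 3 of the 8 off-midline fractions, so the order of its midline values among the rest was not measured.

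By limma 0 of the 4 members were called between midline and off-midline fractions. Of all 32364 probes 0 were called, with a share of 0% in either direction, and 1844 had an unadjusted p under 0.05. The differences were 0.93 for Zic1 (SE 1.01), 1.49 for Zic2 (SE 1.17), 0.83 for Zic4 (SE 0.49) and 0.91 for Zic5 (SE 0.51), with limma adjusted p of 0.727, 0.69, 0.687 and 0.687. The exact two-sided permutation test gave a p of 0.0444 for Zic4, the smallest that 2 against 8 fractions can give, and 0.667 and 0.311 for Zic1 and Zic2. These p-values belong to 8 such tests and are not adjusted. The value of Zic5 rests in part on signals below background, and normexp background correction turned its difference to -0.15. Leaving out midline fraction 5 or 6 brought the difference of Zic2 to 0.88 or 2.10, and without fraction 1 that of Zic1 was 0.54. Without sagittal fractions 1 and 9 the differences were 0.26 for Zic1, 0.79 for Zic2, 0.66 for Zic4 and 0.56 for Zic5. Against fractions 3, 4, 7 and 8 alone they were -0.25, 0.20, 0.42 and 0.44. Within the slide of fractions 5 to 10 they were 1.01, 1.86, 0.62 and 0.91. The difference of Zic1 thus changed direction with the fractions it was set against.

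Mirror fractions of the sagittal series are the nearest thing to a repeat. For fractions 4 and 7 the absolute difference in level was 0.16 for Zic1, 0.12 for Zic2 and 0.10 for Zic4. For fractions 2 and 9 it was 1.78, 2.57 and 0.63, and for fractions 1 and 10 it was 1.54, 0.73 and 0.98. The 3 inner pairs of Zic1 and Zic4 were closer to each other than these outer pairs, each of which holds sagittal fraction 1 or 9. For Zic2 fractions 5 and 6 differed by 1.22 and fractions 3 and 8 by 1.26, more than its fractions 1 and 10. Only fractions 5 and 6 lay on the same slide as their mirror. Of the pairs of Zic5, only fractions 5 and 6 were both measured, with an absolute difference of 0.20. Zic2 in fraction 2 was 1.42, and in fraction 9, where dim probes were raised, it was -1.15.

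In the horizontal series Zic1 had 2.69, 5.67, 6.21, 6.21, 5.02 and 3.70 in fractions 1 to 6 (lowest 2.69, median 5.34, highest 6.21). Zic2 ran from -0.85 in fraction 1 to 2.04 in fraction 3, with a median of 1.38. Both were low in the outer fractions 1 and 6 and high in the inner ones, by 11.5-fold and 7.41-fold between the extremes. Zic4 ran from -0.56 in fraction 6 to 0.41 in fraction 4, with a median of -0.41, a range of 1.96-fold. Zic5 was well above background in fractions 2, 3 and 4, with -3.93, -3.50 and -2.92.

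Variation along each axis was also tested without zones, as a smooth trend over the fraction number (limma F-test of a spline). The share of all probes with a trend was counted for the first fit of each series only. Calls under the other settings have no share beside them, so their gain or loss is not particular to the members. In the coronal series, where 33.7% of all tested probes had a trend, Zic1 (fitted range 3.74, limma adjusted p 0.0177), Zic2 (3.83, 0.0126) and Zic4 (2.86, 0.0221) passed the threshold, each with its fitted peak in fraction 1. Zic5 passed as well (3.70, 0.00885), subject to the filter named above, and its range was 1.26 under normexp. Without fraction 2 the calls of Zic1 and Zic4 were lost (limma adjusted p 0.0613 and 0.0718), and with the slide as an added term 0 of the 4 passed, with limma adjusted p from 0.309 to 0.426 and wider fitted ranges (4.80 for Zic1, 4.16 for Zic2, 3.57 for Zic4 and 4.12 for Zic5). In the horizontal series, where 15.8% of probes had a trend, Zic1 (3.32, limma adjusted p 0.0249) and Zic2 (2.56, 0.0334) passed. Zic4 (0.85, limma adjusted p 0.174) and Zic5 (1.56, 0.128) did not. With the array median as the scale Zic4 (1.90, limma adjusted p 0.00968) and Zic5 (2.60, 0.00978) passed too, and with quantile normalization Zic5 did (2.89, 0.0316). With 1 spline degree of freedom fewer, a straight line over the 6 fractions, the ranges were 0.43 for Zic1 (limma adjusted p 0.952) and 0.04 for Zic2 (0.996). Without fraction 6, in which dim probes were raised, Zic1 and Zic2 had wider fitted ranges of 3.63 and 2.84 and limma adjusted p of 0.0506 and 0.0646, and without fraction 3 or 4 both calls were lost as well (0.0862 and 0.109, and 0.0725 and 0.0737). In the sagittal series, where 14.7% of probes had a trend, Zic2 passed (4.17, limma adjusted p 0.0278, fitted peak in fraction 5). Zic1 (3.53, limma adjusted p 0.0632), Zic4 (1.99, 0.0533) and Zic5 (1.88, 0.133) did not. Without fraction 9, in which dim probes were raised, Zic1 (3.62, limma adjusted p 0.0368) and Zic4 (2.03, 0.0208) passed, as they did without fraction 10 (0.0493 and 0.02), and Zic1 passed without fraction 8 (0.0424). Without fraction 1, the array of lowest signal, the fitted ranges were 2.70 for Zic1, 3.88 for Zic2, 1.02 for Zic4 and 1.23 for Zic5. Zic1 and Zic4 also passed with no filter on dim probes (limma adjusted p 0.0384 and 0.0351) and with 1 spline degree of freedom fewer (0.0435 and 0.0349), and all 4 members did under normexp. With quantile normalization Zic2 did not pass (4.38, limma adjusted p 0.0508). With the slide as an added term 0 of the 4 passed, and the limma adjusted p of Zic2 was 0.0577 with a range of 4.22. The call of Zic2 was also lost without fraction 1, 3, 4 or 5 (limma adjusted p 0.106, 0.0642, 0.0548 and 0.0709).

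Zic1 and Zic4 each had a second probe. The probes of Zic1 had r = 0.936 over the 28 fractions, with an SD of their difference of 0.6, and those of Zic4 had r = 0.875 and 0.42. The second probe of Zic1 gave a caudal minus middle difference of 2.48 (limma adjusted p 0.000177) and that of Zic4 a difference of 2.02 (limma adjusted p 0.00188). The trend ranges of Zic1 were narrower with its second probe. They were 1.94 in the horizontal and 2.00 in the sagittal series, against 3.32 and 3.53 with the first. In the horizontal series the second probe of Zic4 passed the trend test (1.53, limma adjusted p 0.02), and the first did not (0.85). In the sagittal series the probes had near equal ranges on either side of the threshold (1.90, limma adjusted p 0.0382, for the second). Its rostral minus middle difference was 0.14, against 0.78 for the first probe.

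The members were then compared with each other. Over the 28 fractions Pearson's r was 0.919 for Zic1 and Zic2, 0.842 for Zic1 and Zic4, 0.816 for Zic1 and Zic5, 0.786 for Zic2 and Zic4, 0.826 for Zic2 and Zic5 and 0.866 for Zic4 and Zic5. Without sagittal fractions 1 and 9 and horizontal fraction 6 these values were 0.896, 0.884, 0.816, 0.811, 0.817 and 0.883. The fractions share arrays, brains and neighbours, and values with Zic5 include fractions below background, so r is a description. Zic1 and Zic4 had r = 0.99 over the 12 coronal fractions, and 0.733 and 0.8 over the horizontal and sagittal ones. Zic1 and Zic2, which are not neighbours, had 0.905, 0.988 and 0.94. Each of the 6 pairs had an r of 0.677 or more in each series, and of 0.675 to 0.879 over the sagittal fractions without 1 and 9.

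**Figure D3:**
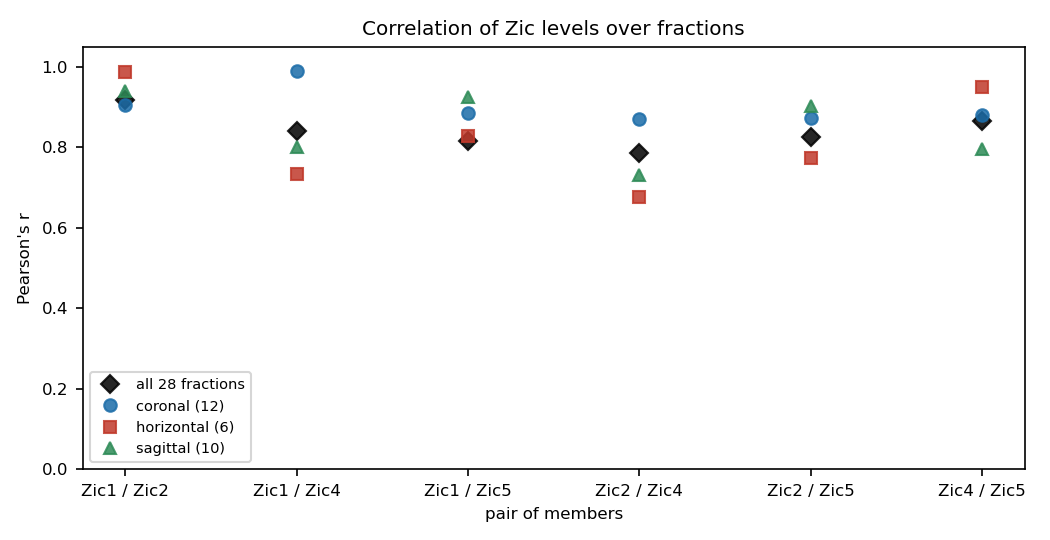
Pearson's r of the levels of each pair of members (horizontal axis) over all 28 fractions and within the coronal, horizontal and sagittal series (marker shapes, with the number of fractions in brackets). The lowest value is 0.677, for Zic2 and Zic4 in the horizontal series, and the highest is 0.99, for Zic1 and Zic4 in the coronal series.

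Within an array the difference between 2 members does not depend on the scaling factor, and it was used to ask whether a zone raised members unequally. In caudal against middle fractions, Zic1 was raised by 0.67 more than Zic4 (exact two-sided permutation p 0.0333, adjusted over 12 tests 0.4). This difference was 0.97 with quantile normalization and 1.26 with normexp, which do more than scale an array. It rests on the first probes of both genes, which gave caudal minus middle differences of 2.96 for Zic1 and 2.29 for Zic4. The second probes gave 2.48 and 2.02, so probes of 1 gene also differed. Zic1 and Zic2 differed by -0.02 (exact permutation p 0.983) and Zic2 and Zic4 by 0.69 (exact permutation p 0.167). Pairs with Zic5 have no measured size here, since Zic5 was below background in the 7 middle fractions. In midline against off-midline fractions the 3 pairs without Zic5 had exact permutation p of 0.267 or more. Of the 12 tests, those with Zic5 included, 0 passed after adjustment. The smallest exact permutation p possible was 0.0167 for the caudal and 0.0444 for the midline tests. A single pair could therefore not have passed, and the count does not show that members were raised alike. In rostral against middle fractions Zic1 stood 1.44 above Zic2, and Zic2 stood below Zic4 with a difference of -1.51. In both cases the exact permutation p was 0.0556, the smallest that 2 against 7 fractions can give. The rostral pairs are not among the 12 tests and are not adjusted, and the others had exact permutation p of 0.222 or more. The value with Zic4 rests on its first probe. Zic2 had the only negative rostral minus middle difference among the 3 members measured in all fractions.

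Genes with profiles most like each member were listed by r over the 28 fractions. At r over 0.85 Zic1 had 217 similarly expressed probes (0.671% of those tested), Zic2 had 187 (0.578%), Zic5 had 109 (0.337%) and Zic4 had 36 (0.111%). The median over all tested probes was 15 and the 75th percentile 116, so Zic1 and Zic2 lay above that percentile. Each member had 1 other member in its list. Without sagittal fractions 1 and 9 and horizontal fraction 6 the numbers were 227 for Zic1, 193 for Zic2, 154 for Zic5 and 116 for Zic4, and 151, 142 and 30 of those of Zic1, Zic2 and Zic4 were among the first ones. Highest for Zic1 were Chn2, a Rac GTPase-activating protein (r = 0.961), Gria4, an AMPA receptor subunit (0.96), Pik3r3, a regulatory subunit of phosphoinositide 3-kinase (0.957), Trim62 (0.953) and Mtus1 (0.95). For Zic2 they were Fam107b (0.95), the zinc finger gene Zfp521 (0.948), Pik3r3 (0.943), the MAP kinase phosphatase gene Dusp10 (0.94) and Mtus1 (0.938). For Zic4 they were Mamdc2 (0.908), Tnfsf9 (0.898), Marchf11 (0.893), Mdfi (0.875) and the potassium channel gene Kcnk10 (0.874). For Zic5 they were Gdf10, a secreted factor of the TGF-beta family that is also in the Purkinje cell list (0.93), the kinase gene Rps6ka1 (0.92), Arhgef33 (0.917), Syne4 (0.915) and the calcium-binding protein gene Casq2 (0.913). Values of r with Zic5 include fractions in which it was below background, so the ranking of its list is a description. Pik3r3 and Mtus1 stood in the lists of both Zic1 and Zic2. Of these genes, each had its highest level in coronal fraction 2, except Trim62, Dusp10 and Casq2, which had it in fraction 3.

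Lists of marker genes placed the fractions. Counts are of tested genes past the threshold in limma. The cerebellar, hindbrain and olfactory bulb lists also served to place the zones, so their counts describe the zones and do not test them. In caudal against middle fractions 9 of 11 genes of the cerebellar granule cell list were higher and 0 lower, with a median difference of 3.05 against 0.01 over all tested probes. Examples were Gabra6, a GABA receptor subunit of granule cells (8.19), Cbln3 (6.24), Neurod1 (5.0) and Fat2 (4.74). Of the 7 middle fractions, 2 measured Gabra6 and 1 measured Cbln3 well above background, so the size of these differences rests in part on signals below it. Atoh1, the gene of granule cell precursors, was measured well above background in 0 caudal and 0 middle fractions, and Barhl1 had -0.39 (limma adjusted p 0.275). All 8 genes of the Purkinje cell list were higher (median 3.54), among them Pcp2 (6.91) and Ppp1r17 (6.11), and all 7 tested genes of the hindbrain list (median 4.56), with Hoxb5 at 6.13. Of the 7 middle fractions, 5 measured Ppp1r17 and 2 measured Hoxb5, and the hindbrain gene Hoxa5, measured in 2 caudal fractions and in no other coronal one, passed the filter through the zone where it was high. Within the slide of fractions 3 to 10 the medians were 3.27, 3.41 and 2.94 for the granule cell, Purkinje cell and hindbrain lists. The zone thus held cerebellum and hindbrain together, and their parts in the caudal level of Zic genes were not tested.

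The profile of Zic1 had r of 0.92, 0.99 and 0.98 with the mean of the granule cell list in the coronal, horizontal and sagittal series, and 0.9, 0.98 and 0.97 with that of the Purkinje cell list. With the hindbrain list r was 0.82, -0.10 and 0.48. Zic2 had 0.9, 0.99 and 0.91 with the granule cell list, 0.93, 0.99 and 0.91 with the Purkinje cell list and 0.79, -0.18 and 0.5 with the hindbrain list. Zic4 had 0.89, 0.67 and 0.85 with the granule cell list, and Zic5 had 0.93, 0.79 and 0.95. Over the 8 sagittal fractions other than 1 and 9, r with the granule cell list was 0.93 for Zic1, 0.83 for Zic2, 0.82 for Zic4 and 0.82 for Zic5. Other lists had higher values there, namely the relatives of the family by zinc finger (0.93) and the Purkinje cell list (0.88) for Zic2, the choroid plexus (0.92), ependyma (0.87) and Purkinje cell (0.87) lists for Zic4 and the ependyma list (0.87) for Zic5. Over all 10 sagittal fractions Zic4 had 0.9 with the choroid plexus list and 0.88 with the ependyma list. In the horizontal series the olfactory nerve and olfactory bulb projection neuron lists had higher r than the granule cell list with Zic4 (0.88 and 0.82) and Zic5 (0.92 and 0.89), while in the coronal series r was -0.01 and -0.07 for Zic4 and -0.23 and -0.30 for Zic5. These values are over 12, 6 and 10 fractions and the lists share arrays with the members, so they are descriptions. Those of Zic5 include fractions in which it was not well above background and had no measured order. Granule and Purkinje cell markers had near equal values, and the cell types of the cerebellum are thus not separated by these fractions.

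**Figure D4:**
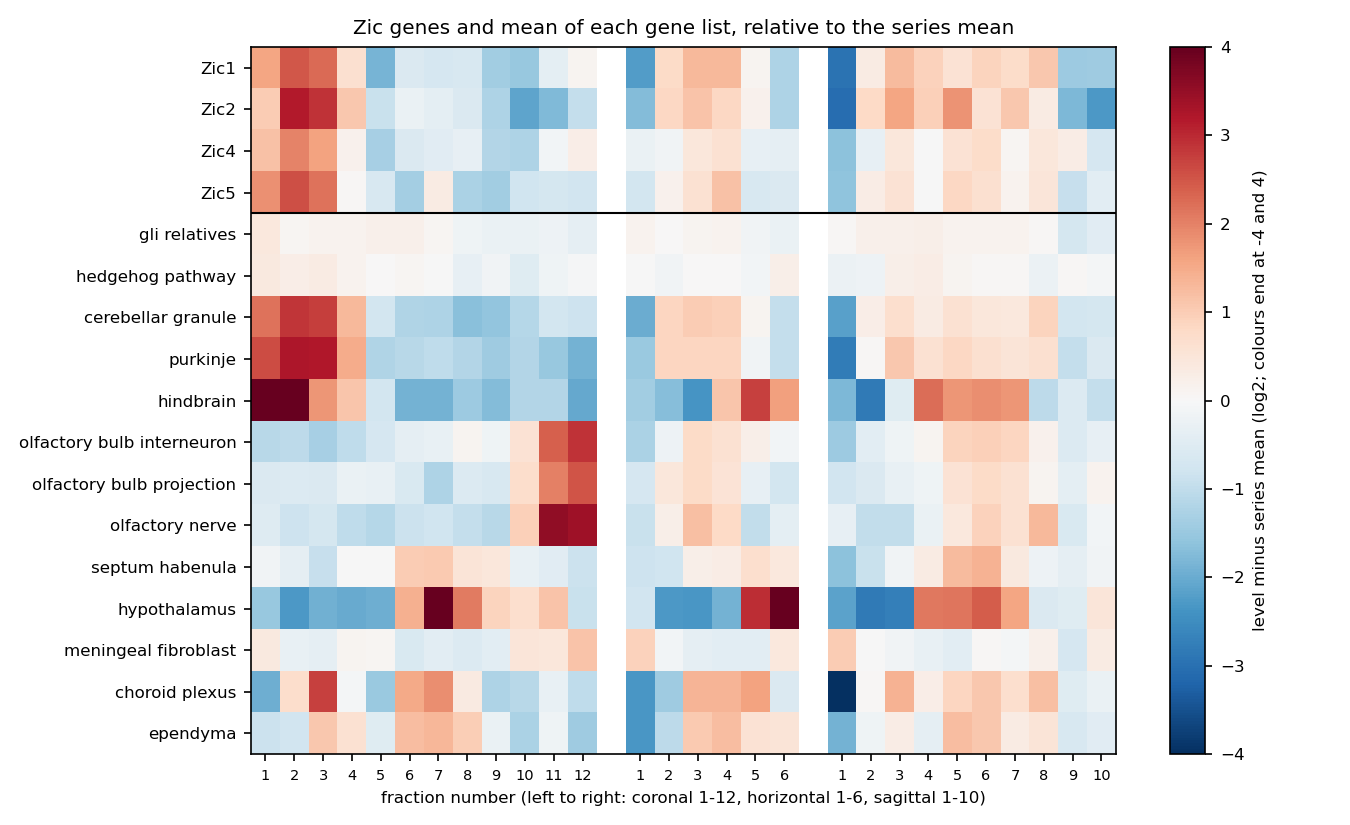
Level minus the series mean (colour, log2) of the 4 members (upper rows) and of the mean of each gene list (lower rows) in the coronal, horizontal and sagittal fractions (horizontal axis, fraction number). The members and the granule cell, Purkinje cell and hindbrain lists are red in coronal fractions 1 to 3, the olfactory lists are red in coronal fractions 11 and 12, and the colours end at -4 and 4.

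In rostral against middle fractions 9 of 10 genes of the olfactory bulb interneuron list were higher and 0 lower (median 3.0), one of them Sall3, which was measured in 1 rostral fraction and in no other coronal one and so passed the filter through the zone where it was high. Among the others were Sp8 at 5.2, Th, the enzyme that limits dopamine synthesis, at 3.64, Dlx2 at 3.17 and Dlx5 at 3.03. The gene of the list that was not called was Etv1 (0.71, limma adjusted p 0.145), which stands in the granule cell list too. Of the olfactory bulb projection neuron list 4 of 7 were higher, with Tbx21, which 2 of the 7 middle fractions measured, at 7.23, and 1 was lower. Of the olfactory nerve list 4 of 6 were higher, with S100a5 at 8.68 and Omp, the olfactory marker protein, at 8.4. Pax6, which granule cells and olfactory bulb interneurons both use, was higher in both zones, by 2.77 in the caudal and 2.41 in the rostral fractions. So were Eomes (3.9 and 6.13), Calb2 (2.87 and 3.0), Reln (1.87 and 2.25) and Gng13 (1.79 and 1.55) of the olfactory lists. Of the 7 middle fractions 5 measured Eomes and 3 measured Reln. In the caudal fractions 2 interneuron, 3 projection neuron and 1 olfactory nerve genes were higher, and 3, 3 and 0 lower.

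Meningeal fibroblasts express Zic genes, and their markers were followed for that reason. In caudal against middle fractions 0 of 11 genes of the list were called (median 0.15), and the summed linear level of the list ran from 41.1 to 78.6 in caudal and from 31.6 to 64.9 in middle fractions. In rostral against middle fractions 3 of 11 were higher, Crabp2 (1.81), Slc6a13 (1.41) and Slc22a6 (1.13), with a median of 1.01, and the sum ran from 72.1 to 124. The part of meningeal RNA in the rostral values of Zic1 and Zic4 was not tested. Over the 11 genes 0 were below background in any zone as a whole. The sagittal maximum of the list was in fraction 1, where Zic1, Zic2 and Zic4 were lowest, and without that array it was in fraction 10. Of the choroid plexus list 0 of 7 and of the ependyma list 0 of 5 were called in caudal against middle fractions (medians 0.40 and -0.71). The choroid plexus list was highest in coronal fraction 3, with a median of 2.56 over fractions 4 to 10 within the slide.

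For the midline fractions the lists gave values with 0 genes called. The median midline minus off-midline difference was 3.49 over 6 tested genes of the hypothalamus list, 2.15 over the hindbrain list, 1.14 over 6 genes of the septum and habenula list and 0.92 over the granule cell list, against -0.07 over all tested probes. The median was 1.42 over the ependyma list, 1.14 over the choroid plexus list, 1.11 over the olfactory nerve list and 0.94 over the Purkinje cell list. The differences of the 4 members, from 0.83 to 1.49, lay below the medians of the hypothalamus and hindbrain lists. In caudal against middle fractions 1 of 6 septum and habenula genes was lower, Trpc4 (-2.54), and 0 of 6 hypothalamus genes were called (median -2.74).

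Of the hedgehog pathway, in which Gli proteins act, 3 of 15 genes were higher and 1 lower in caudal against middle fractions (median 0.27). Higher were the co-receptor genes Boc (1.79) and Cdon (0.86) and the receptor gene Ptch1 (1.59), itself a target of the pathway, and lower was Disp1 (-0.44), whose product releases the ligand. The ligand gene Shh had 0.26 (limma adjusted p 0.703) and passed as well above background on 16 of 28 arrays. In rostral against middle fractions 2 were higher, Dhh (3.29) and Kif7 (1.64), which 3 and 5 of the 7 middle fractions measured, and 3 were lower, the transducer gene Smo (-2.23), Hhip (-2.03) and Boc (-0.78). Of the 5 tested relatives of the family by zinc finger, Gli1 (1.33) was higher in the caudal fractions and Glis1 (-1.26) was lower. In the rostral fractions Glis2 (0.66) was higher and Gli3 (-0.79) lower. These counts are near the shares called over all probes or above them by few genes, and nothing is read from them.

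**Figure D5:**
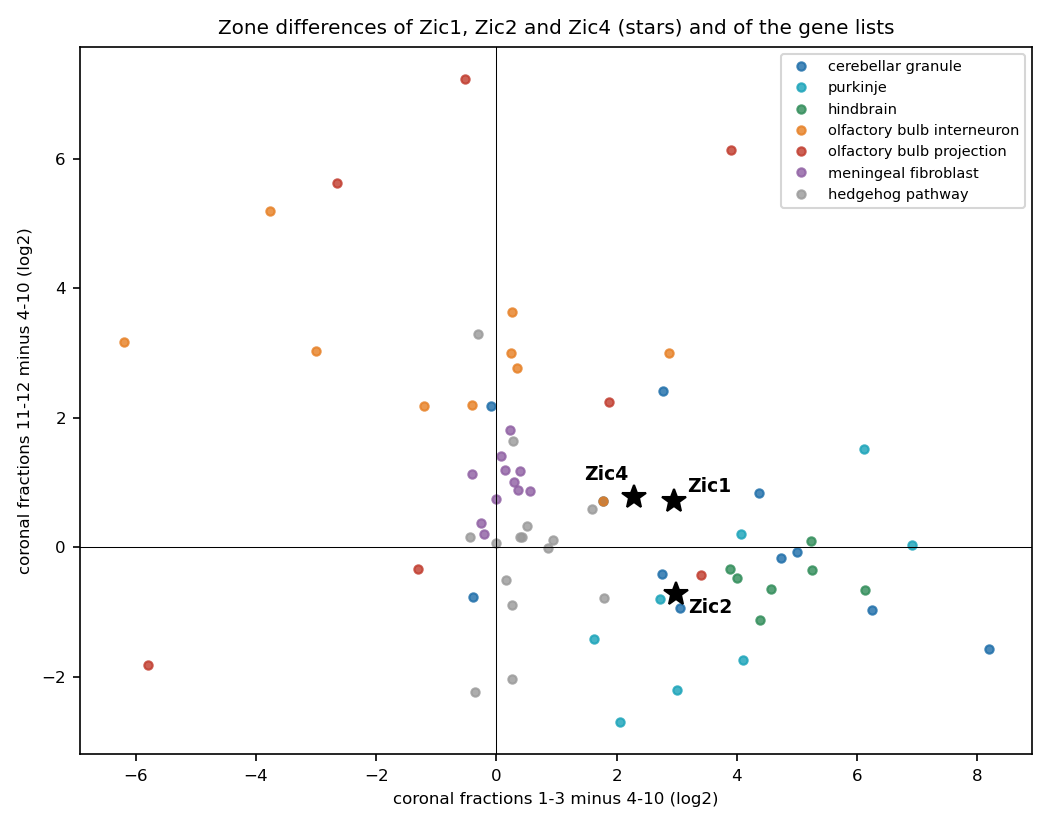
Difference of caudal (horizontal axis) and rostral (vertical axis) from middle coronal fractions (log2) for Zic1, Zic2 and Zic4 (stars) and the tested genes of 7 lists (circles, coloured by list, with signals below background included). Zic5 is not drawn, since it was below background in the middle and rostral fractions, and the 3 stars lie right of 2 and between -0.73 and 0.78 in height.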

How the data were processed

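RNA from every fraction was labelled with Cy3 and hybridised to a 1-colour Agilent array. The deposited intensity values came, per the file headers, from version 10.5.1.1 of Feature Extraction with the background subtracted, and the array was annotated on mm9. The 62976 spots of an array included 59305 that were not controls and stood for 55681 probes. A deposited table of log2 values by the authors covers 44721 probes. Probes with 1 spot, kept on every array, had values there equal to those computed here up to a constant per array. The constant ran from 0.001111 to 0.00758. Probes with repeated spots were not compared in this way. Normalization was per chip, as the study states.

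Here outlier spots (108 to 176 per array) were left out, spots of a probe were averaged, and the log2 signal was set relative to the 75th percentile of its array. A probe counted as well above background where the flag was set for a share of its spots of 0.5 or more. Probes had to reach this in 1 or more fractions of every series; 62 with no spot left on some array were dropped, and 32364 were tested. Names came from a RefSeq table of GRCm38.p6 (27235 probes, 48.9%), used without its gene coordinates. No spot was saturated.

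Zones and spline trends (3 degrees of freedom, 2 in the horizontal series) were fitted with limma 3.58.1 in R 4.3.3 within 1 series, with Benjamini-Hochberg adjustment over all tested probes and a threshold of 0.05. The fits were tested on simulated data, of which no value is given here. Exact permutation tests used scipy 1.17.1. The number of arrays limits the precision. Folds against a zone below background are lower bounds. The text names the members and the 5 symbols of highest r for each member. From each list it names up to 4 called genes with the largest differences per comparison and direction. Etv1, Atoh1, Barhl1, Pax6, Shh, Sall3, Hoxa5, Eomes, Calb2, Reln and Gng13 were added after their values were seen. The members, zones and lists were chosen with earlier results of these data known. Alternatives were other scalings (array median, quantile), normexp (offset 50, median foreground and background signals), the deposited log2 values, no filter on dim probes, second probes, other zone borders, the slide, and each fraction left out. Chosen after seeing the data were the trends with a slide term and the fits, correlations and counts without sagittal fractions 1 and 9 and horizontal fraction 6.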

Additional observations from a re-analysis of the deposited data

How the results depend on the processing

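The caudal minus middle differences of Zic1, Zic2 and Zic4 kept their direction and their call when each coronal fraction was left out (2.78 to 3.22, 2.58 to 3.65 and 2.09 to 2.49) and under the scalings, background corrections and filters tried. With the slide as a term Zic1 and Zic4 kept their call and Zic2 did not (3.51, adjusted p 0.0803), and within 1 slide, with 1 caudal array, the values of Zic1 (3.11), Zic2 (3.51) and Zic4 (2.30) were not past the threshold. For caudal minus rostral, Zic4 had 1.40 with the array median, 1.51 with no filter on dim probes and 1.16 with fractions 1 to 4 as the caudal zone, Zic1 had 2.25 with no filter and Zic5 had 0.66 with normexp, each no longer past the threshold of 0.05. Leaving out each coronal fraction gave 2.00 to 2.51 for Zic1, 3.30 to 4.38 for Zic2 and 1.31 to 1.72 for Zic4. The rostral minus middle difference of Zic5, below background in both zones, was -0.01 and became 0.14 with the array median, 0.24 with normexp and 0.12 with fractions 1 to 4 as caudal, and -0.12 to 0.16 over left-out fractions. The midline difference of Zic1 reversed against fractions 3, 4, 7 and 8 (-0.25) and that of Zic5 with normexp (-0.15). The exact permutation test gave a p under 0.05 for those of Zic4 (0.83) and Zic5 (0.91, with no measured order). These p-values are not adjusted over the 8 such tests. The number of members with a trend was 4 in the coronal series, with Zic5, which passed the filter on dim probes there only through its high fractions, and 3 without it (with Zic5, 2 to 4 over left-out fractions, 0 with a slide term), 2 in the horizontal series (0 to 3, 4 with the array median, 0 with 1 spline degree of freedom fewer) and 1 in the sagittal series (0 to 3, 0 with quantile normalization or a slide term, 4 with normexp, 3 with no filter or 1 spline degree of freedom fewer). Of the differences between members, none of them called, Zic1 against Zic2 in the caudal fractions became 0.25 with quantile normalization and 0.23 with normexp, Zic2 against Zic5 became -0.05 with quantile normalization and Zic4 against Zic5 became 0.82 with normexp, which also moved Zic1 against Zic5 from 0.05 to 2.07, Zic2 against Zic5 from 0.07 to 1.85 and Zic1 against Zic4 from 0.67 to 1.26. At the midline Zic1 against Zic5 became -0.25 with quantile normalization and Zic4 against Zic5 became 0.76 with normexp. Normexp also moved Zic1 against Zic5 there from 0.02 to 1.12 and Zic2 against Zic5 from 0.57 to 1.26. The cause was not tested in any of these cases. With the array median 66% of the rostral minus middle calls over all probes were higher (46.5% with the 75th percentile), and 34.3% of the caudal minus rostral calls (51.9%), and the median midline difference of all probes moved from -0.074 to 0.298. Beyond the main fits, shares of all probes called were counted only for zone differences under other scalings, normexp and the deposited log2 values. No paired analysis was possible because the fraction numbers are positions on different axes of different mice. Signal over background limits Zic5, which 17 of 28 arrays did not measure.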
